A study of Mus musculus with 7 samples.

Results

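Very long autosomal genes were followed in RNA that stays bound to chromatin. They were the rows of the expression table on chromosomes 1 to 19 that span at least 500000 bases and have a mean of at least 1 RPM (read pairs scaled to a common total on genes) over the 7 libraries, other than symbols starting with Zfp and the genes Gphn and Camk1d. Of 22556 rows, 166 met this rule, and 12937 other autosomal genes of at least 1 RPM served for comparison. The members were thus chosen by annotated span and by mean RPM over the 7 libraries, and these 2 thresholds use no contrast between libraries. The rule was set with earlier results of these data known, so the choice was not blind to them. All libraries came from C7H8 iXist-ChrX_Cast XX mouse embryonic stem (mES) cells, 1 clone of a cross of the Cast and 129S strains in which a doxycycline (Dox) responsive promoter replaces that of Xist on the Cast X chromosome, grown on inactivated fibroblast feeders. They were kept for 6 h in DMSO (3 libraries) or in STM2457, a small molecule that blocks the RNA methyltransferase METTL3, at 10 µM (2 libraries), 20 µM (1) or 30 µM (1), and then for 24 h in the same with Dox, so that Xist was induced in every library. ChrRNA-seq counts reads over the whole transcript, introns included.

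RNA polymerase II needs hours to cross a gene of this size, so most of the RNA of such a gene on chromatin at any moment is unfinished. Many of the longest mammalian genes encode adhesion molecules, channels and receptors of neurons, and several coincide with common fragile sites, regions that tend to break when replication is slowed. METTL3 is the catalytic subunit of the complex that places N6-methyladenosine on nascent RNA.

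The median span was 711 kb, 40 genes spanned 1 Mb or more, and the longest was Ptprd, a receptor tyrosine phosphatase, at 2271 kb. Of the 164 genes matched in GENCODE, 163 were protein coding, with a median of 17 exons, which covered a median of 0.698% of the transcript. The rest of the counted sequence was intronic. Of the 166 rows, 2 carry microRNA symbols, Mir8115 and Mir669m-1, and neither was matched. The row of Mir8115 overlaps 4 other rows on its strand and 9 on the opposite strand. These 2 rows met the rule by row span and are counted in the 166, but were not shown to be long genes. The row of Pcdha4-g overlaps 58 other rows on its strand. It was matched to Gm37013, whose longest transcript has 3 exons with 313 bases in all. For Nfia the longest matched transcript spans 341264 bases, under the threshold of the rule. The median gene had 41.9 RPM (interquartile range 7.43 to 168) and the 10 genes with the most reads held 48.1% of the reads of all 166. Per kilobase of span the median was 0.0494 RPM, against 1.11 RPM per kilobase in other autosomal genes. Both sets were filtered at 1 RPM a gene, which admits longer genes at a lower level per kilobase. This difference is therefore partly set by the rule. Mean RPM is a level per library and, at a given level per kilobase, rises with gene length. The ranks and classes by RPM below are not corrected for length.

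The reads lay on a few genes. Tenm4, a teneurin adhesion protein, had the most reads (2642 RPM, mean of 7 libraries) and also the highest level per kilobase (3.79 RPM). Exoc4, a subunit of the exocyst tethering complex, had 2445 RPM, and Ptprg, another receptor phosphatase, 2263 RPM. Smyd3 (1568 RPM), a lysine methyltransferase, and Immp2l (1522 RPM), a mitochondrial inner membrane peptidase, were among the next. Of the 6 longest genes, Ptprd had a mean of 62.6 RPM, Cntnap2, a neurexin-like adhesion protein, 27.4 RPM, the lipoprotein receptor relative Lrp1b 9.07 RPM, Macrod2, an ADP-ribose hydrolase, 165 RPM, Csmd1, a complement regulator, 6.50 RPM, and Fhit, a diadenosine triphosphate hydrolase at a fragile site, 159 RPM. Of the 166 genes, 53 had under 10 RPM, where 1 library holds few reads for so long a gene.

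The threshold on span fell between Mir3470b (495029 bases) and Ank3 (493729) outside and Edil3 (501754) and Car10 (502462) inside. Gphn (458115) and Camk1d (421306) were under it, so naming them as left out removed no row. By level, Cntnap5b (0.959 RPM) and Cntnap5c (0.943 RPM) were just outside, and Lrrc4c (1.17 RPM) and Dcc (1.30 RPM) just inside. The mean over all libraries was used, and no gene was under 1 RPM in the mean of DMSO and 4 were in the mean of 10 µM. The rows of 15 genes overlap another row on the same strand and those of 47 a row on the opposite strand. The counting used the strand.

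Sequence is shown for the starts of 3 genes on which the comparisons turn. In the limma fit with the replicate block, Cadm2 fell most and Car10 rose most. Pde4d had the most reads among the genes called in all 3 fits with that block. Each run gives 300 bases around the start in RefSeq (GRCm38.p6), most of them before it, 5′ to 3′ on the gene's strand, with CG dinucleotides in capitals.
Cadm2 (chr16:67620859-67621158, minus strand): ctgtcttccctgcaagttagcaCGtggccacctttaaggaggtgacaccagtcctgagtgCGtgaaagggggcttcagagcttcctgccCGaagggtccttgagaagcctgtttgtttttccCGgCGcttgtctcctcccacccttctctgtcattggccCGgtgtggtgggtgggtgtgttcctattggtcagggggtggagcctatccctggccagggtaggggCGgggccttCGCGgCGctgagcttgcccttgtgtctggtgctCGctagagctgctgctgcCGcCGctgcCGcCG
Car10 (chr11:93099040-93099339, plus strand): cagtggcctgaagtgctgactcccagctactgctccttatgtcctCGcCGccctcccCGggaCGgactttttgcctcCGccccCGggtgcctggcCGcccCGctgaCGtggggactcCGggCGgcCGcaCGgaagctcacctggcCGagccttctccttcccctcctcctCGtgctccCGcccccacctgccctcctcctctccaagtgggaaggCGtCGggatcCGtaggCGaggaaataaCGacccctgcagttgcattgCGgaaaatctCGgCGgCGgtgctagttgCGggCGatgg
Pde4d (chr13:108653927-108654226, plus strand): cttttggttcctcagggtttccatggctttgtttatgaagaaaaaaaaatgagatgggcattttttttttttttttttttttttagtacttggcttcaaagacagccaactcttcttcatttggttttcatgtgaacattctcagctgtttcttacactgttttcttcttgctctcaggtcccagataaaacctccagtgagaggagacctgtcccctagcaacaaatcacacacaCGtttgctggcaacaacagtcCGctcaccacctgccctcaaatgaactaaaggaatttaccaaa
Cadm2 held 15 CG dinucleotides, Car10 27 and Pde4d 2. Of the 166 genes, 112 had a promoter in this table at the start of their row, with a median of 18 CG, against 7 over 32851 promoters of the same length. The letters GGGCGG, on either strand, were in 54.5% of the 112 and in 35.7% of all promoters, and TATAAA, on either strand, in 7.14% and 13.6%. The 32851 promoters were not limited to genes of at least 1 RPM, as the members were. Whether these differences hold against the 12937 other autosomal genes was not tested. The 2 motifs do not overlap in their letters, and a match is a description only. DNA was not measured here.

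The libraries differed in ways that the treatment does not give. Depth was 9300549 to 28030180 read pairs on genes, lowest at 20 µM. Principal component 1 of log2(RPM + 1) over the 12937 other autosomal genes held 78.8% of the variance and put DMSO replicate 3 with the 20 µM and 30 µM libraries, apart from DMSO replicates 1 and 2 and both 10 µM libraries. The labels name no batch. Of the ES cell markers, Pou5f1 (33.6 to 47.9 RPM), Nanog (71.4 to 95.7 RPM), Esrrb (545 to 794 RPM) and the rest had reads in every library except Sox2, whose row is at 0 in every library and lies within Sox2ot on the same strand. The summed RPM of 18 fibroblast markers was 942 to 1207 in DMSO replicates 1 and 2 and at 10 µM, and 476 to 650 in the other 3 libraries. Most of it was Fn1 (423 to 1148 RPM), which other cells also express, and Col1a1, Col1a2, Col3a1, Postn, Dcn, Lum and Lox were each at most 0.942 RPM in any library. Col5a1 had at least 30.5 RPM in the first 4 libraries and 15.3 to 21.4 RPM in the other 3, Fbn1 14.7 to 22.5 RPM over all, and Col5a2 went the other way, at 1.49 to 2.53 RPM and 6.38 to 7.53 RPM. That of 77 ribosomal protein genes was 5164 to 7218 and 2850 to 4183 in the same libraries. How much of the results below goes with these differences was not tested beyond the fits given.

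The share of reads on the long genes was 3.46%, 3.51% and 4.15% in DMSO replicates 1, 2 and 3 (3.71% ± 0.387, SD, n = 3). At 10 µM it was 3.44% and 3.29% (3.36% ± 0.103, SD, n = 2), at 20 µM 3.33% and at 30 µM 4.03%. DMSO replicate 3 and the 30 µM library were high, and the other 5 lay between 3.29% and 3.51%. The 8 genes of at least 5000 RPM in any library held 10.5% of the reads at 20 µM and 1.99% to 2.58% in the other libraries. Of the reads on the remaining genes, the long genes held 3.71% at 20 µM, 3.36% to 3.58% in DMSO replicates 1 and 2 and at 10 µM, 4.26% in DMSO replicate 3 and 4.14% at 30 µM. Against the DMSO mean, the median long gene stood above the median other autosomal gene in DMSO replicate 3 (difference of medians 0.32 on the log2 scale), at 20 µM (0.23) and at 30 µM (0.32). It stood below in DMSO replicates 1 (-0.19) and 2 (-0.13) and in both 10 µM libraries (-0.15 and -0.27). DMSO and treated libraries lay on both sides of the other genes. In these bulk libraries, fewer cells with a transcript and less of it in each cell cannot be told apart.

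**Figure D1:**
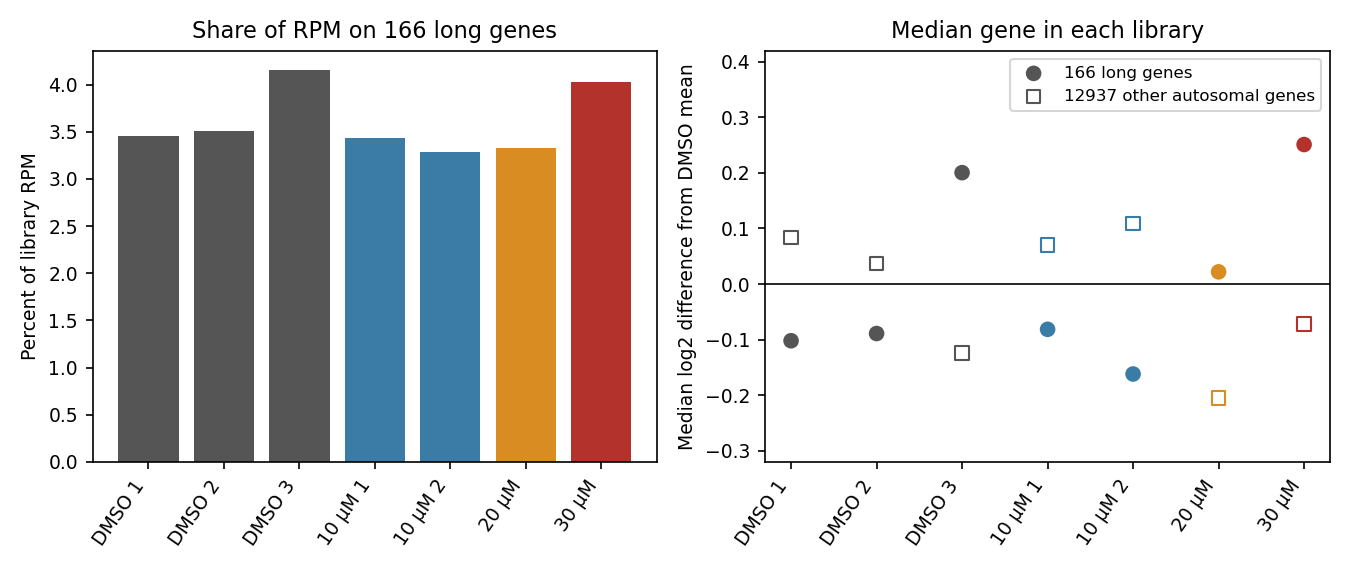
Left, percent of each library's RPM on the 166 long genes (bars from 0, 1 bar a library). Right, median log2 difference of each library from the mean of the 3 DMSO libraries for the 166 long genes (filled circles) and 12937 other autosomal genes (open squares). DMSO 3 and 30 µM hold the highest shares, 4.15% and 4.03%, and the circle lies above the square in DMSO 3, 20 µM and 30 µM only.

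DMSO replicate 3 differed from DMSO replicates 1 and 2 by gene length. The median difference on the log2 scale was -0.50 in autosomal genes under 10 kb, -0.16 from 10 to 50 kb, -0.01 from 50 to 100 kb, 0.04 from 100 to 300 kb, 0.16 from 300 to 500 kb and 0.30 in the 166 genes. With TMM scaling all of these were higher, from -0.36 in the shortest to 0.48 in the 166, and those from 10 to 50 kb (0.007) and from 50 to 100 kb (0.16) changed sign. Among the 166, 34 (20.5%) were at least 2-fold higher in DMSO replicate 3, against 3.44% of all genes tested, and 4 (2.41%) at least 2-fold lower, against 10.1%. With TMM scaling these were 47, against 5.07%, and 2, against 6.99%. Without TMM scaling, 13.5% of autosomal genes from 300 to 500 kb were at least 2-fold higher and 4.61% at least 2-fold lower. From 100 to 300 kb these shares were 7.22% and 5.27%. DMSO replicates 1 to 3 are all untreated, so these are values with no test.

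The largest difference was that of Dgkb. Dgkb, a diacylglycerol kinase, had 39.5 and 25.3 RPM in DMSO replicates 1 and 2 and 235 RPM in replicate 3, a 7.24-fold difference. It had 33.0 and 19.7 RPM at 10 µM, 138 RPM at 20 µM and 120 RPM at 30 µM. The 10 µM libraries lay by DMSO replicates 1 and 2, and the higher doses between these and DMSO replicate 3. Ralyl, an RNA-binding protein, was 6.30-fold higher in DMSO replicate 3 than in the mean of replicates 1 and 2, the adhesion receptor Lphn3 5.29-fold, Sgcz, a sarcoglycan, 4.98-fold, and the cadherin Cdh13 4.17-fold. Enox1 (3.90-fold), a cell surface oxidase, Nckap5 (3.81-fold) and Kirrel3 (3.56-fold), an adhesion protein of synapses, completed the 8 with the largest difference of at least 5 RPM. Enox1 had 436, 368 and 1565 RPM in the DMSO libraries, 405 and 353 RPM at 10 µM, 937 RPM at 20 µM and 1120 RPM at 30 µM. Of the 40 long genes of cell adhesion and the synapse, 11 were at least 2-fold higher in DMSO replicate 3 and 2 at least 2-fold lower, and their median difference was 0.53. Of the 17 long channel and receptor genes, 6 were at least 2-fold higher and 1 at least 2-fold lower, with a median of 0.35. Of the 6 neural markers of at least 1 RPM, 5 were also higher in DMSO replicate 3, with a median difference of 0.34. Map2, with the most reads of the 6, had 156 and 141 RPM in DMSO replicates 1 and 2 and 182 RPM in replicate 3. The largest differences were those of Pax6 (0.908, 0.749 and 4.33 RPM) and Neurod1 (1.20, 0.963 and 3.12 RPM). Both were low, with means of 1.92 and 1.62 RPM over the 7 libraries. Rbfox3 (8.18, 5.57 and 6.01 RPM) was the marker not higher. In replicate 3, Nes and Rbfox3 each lay between their levels in replicates 1 and 2. The part of these markers in the difference of the long genes was not tested. The 30 long genes reported at fragile sites had a median of 0.05, with 5 at least 2-fold higher, and the 6 axon guidance genes had a median of -0.34, with none.

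**Figure D2:**
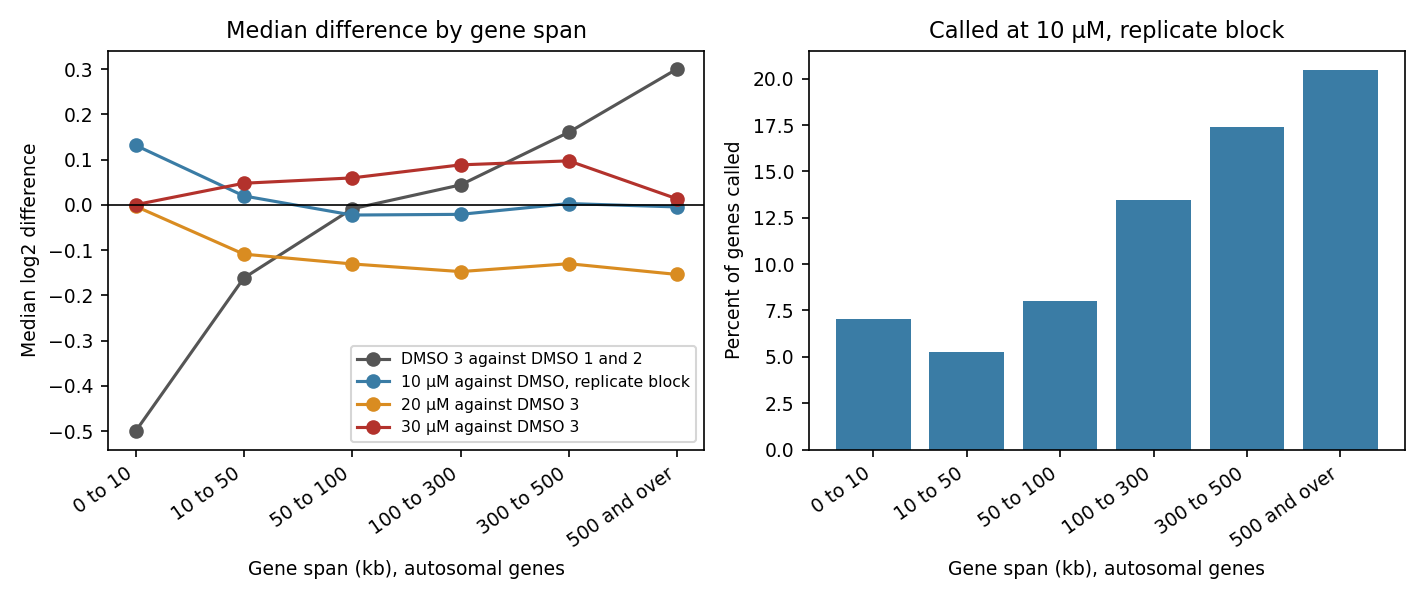
Left, median log2 difference of autosomal genes in 6 classes of span (kb). Lines are DMSO 3 against DMSO 1 and 2, 10 µM against DMSO with the replicate block, and 20 µM and 30 µM each against DMSO 3. The labels pair neither 20 µM nor 30 µM with DMSO 3. Right, percent of genes in each class past an adjusted p of 0.05 at 10 µM with the replicate block. The DMSO 3 line climbs from -0.50 to 0.30 while the 10 µM line runs from 0.13 to -0.004, and the share called is 7.03% in the shortest class and 20.5% in the longest.

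The first question was which long genes changed at 10 µM. With all 3 DMSO libraries, limma called no gene of 13599 at an adjusted p under 0.05 (background 0%), 212 genes had an unadjusted p under 0.05, and 12 of these were long genes (2 higher and 10 lower). edgeR also called none (224 genes at an unadjusted p under 0.05), and DESeq2 called 1 gene in all (0.00735%), Cadm2. The median change was -0.14 in the 166 genes and 0.09 in other autosomal genes, a difference of -0.23. It was -0.03 without DMSO replicate 3. The largest changes among genes of at least 5 RPM were those of Dgkb (-1.25), Pde4d (-1.07), Adarb2 (-1.01), Cadm2 (-0.95), Ralyl (-0.84) and Erbb4 (-0.80), on the log2(RPM + 1) scale, and none passed the test.

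DMSO and 10 µM replicates of one number were, per the study's methods, seeded from a common pool of cells, and their deviations from the group means correlated (r = 0.621 over 13599 genes, 0.772 over the 166). When replicate number entered the fit as a block, without DMSO replicate 3, 7.5% of all genes were called (4.13% higher and 3.38% lower), and 34 of the 166 long genes (20.5%), 14 higher and 20 lower. This fit has 1 residual degree of freedom, so its standard errors are those of the trend over all genes and not of the gene itself. In edgeR the same design also leaves 1 residual degree of freedom, so its p-values too borrow from the spread of other genes. edgeR with the same block called 6.15% of all genes (3.11% higher and 3.04% lower) and 26 of the 166 (11 higher and 15 lower), and limma with TMM scaling also 26, against 6.38% of all genes. A total of 25 genes were called in all 3 fits, 11 higher and 14 lower, and these fits share the same libraries. The 9 that edgeR did not call were Etl4, Wwox, Elmo1, Gpc6, Erc2, Mast4, Macrod2, Dpp6 and Unc5d. Without the block, Gabrg3 (-0.05) and Nkain2 (-0.12) had the opposite sign in limma, and in edgeR so did Gabrg3 (-0.41), Nkain2 (-0.46), Fam155a (-0.22) and Cdk14 (-0.08), where none was called. The share called rose with level in both sets: it was 5.66% of long genes of 1 to 10 RPM, 23.0% of 10 to 100 RPM and 32.7% of 100 RPM or more, against 4.16%, 7.24% and 12.9% of other autosomal genes. The median change was -0.004 in the 166 and 0.03 in the others. By span, limma with the block called 13.4% of autosomal genes from 100 to 300 kb and 17.4% from 300 to 500 kb.

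Cadm2, a synaptic adhesion molecule of the immunoglobulin superfamily (chr16:66655420-67620908, mm10), changed most in the limma fit with the block. It was at 103, 109 and 75.4 RPM in the DMSO libraries, 49.0 and 47.9 RPM at 10 µM, 28.9 RPM at 20 µM and 27.5 RPM at 30 µM. All 4 treated libraries were below all 3 DMSO libraries. With the block it fell by 1.11 on the log2 scale (SE 0.0818, limma adjusted p = 9.57e-38, edgeR adjusted p = 1.80e-30), which is 0.478-fold and 0.438-fold in the 2 pairs. Kcnd2, a voltage-gated potassium channel of the A-type current (chr6:21216108-21729805), had the same order. It was at 91.3, 87.4 and 76.4 RPM in DMSO, 67.8 and 55.7 RPM at 10 µM, 48.8 RPM at 20 µM and 45.2 RPM at 30 µM, and fell by 0.53 with the block (SE 0.0811, limma adjusted p = 2.77e-08).

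Pde4d, a cAMP phosphodiesterase (chr13:108654176-109955969), was at 930, 737 and 2030 RPM in DMSO, 626 and 450 RPM at 10 µM, 1184 RPM at 20 µM and 1414 RPM at 30 µM. Both higher doses were above DMSO replicates 1 and 2 and below replicate 3. With the block it fell by 0.64 (SE 0.0625, limma adjusted p = 4.86e-21). Adarb2, an RNA-binding protein of the adenosine deaminase family, was at 13.0, 11.1 and 13.9 RPM in DMSO, 7.10 and 4.60 RPM at 10 µM and 9.89 and 10.1 RPM at 20 and 30 µM, and all treated libraries were below DMSO. It fell by 0.95 with the block (SE 0.163, limma adjusted p = 1.85e-06). Erbb4, a neuregulin receptor, fell by 0.71 (limma adjusted p = 4.64e-05), from 23.6 and 17.7 RPM to 14.7 and 9.93 RPM. The glutamate receptor Grm7 fell by 0.52 (limma adjusted p = 0.0263) from a level of 2.06 and 1.53 RPM to 1.18 and 0.724 RPM, and was at 2.80 and 3.08 RPM at 20 and 30 µM, above its 2.33 RPM in DMSO replicate 3. Wwox, an oxidoreductase at a fragile site, was at 758, 788 and 896 RPM in DMSO and 596 and 626 RPM at 10 µM. It was called by limma with the block (-0.34, adjusted p = 1.09e-05) but not by edgeR (adjusted p = 0.0597).

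The genes that rose included Car10, a carbonic anhydrase related protein that binds neurexins (chr11:93099289-93601751). It was at 2.96, 4.42 and 5.68 RPM in DMSO, 5.44 and 10.5 RPM at 10 µM, 25.4 RPM at 20 µM and 34.2 RPM at 30 µM. Of the treated libraries only 10 µM replicate 1 lay within the DMSO range. With the block it rose by 0.89 (SE 0.171, limma adjusted p = 2.41e-05), 1.84-fold and 2.38-fold in the 2 pairs. Grid1, a glutamate receptor of the delta type (chr14:34820135-35581115), was at 65.8, 79.8 and 83.0 RPM in DMSO, 96.3 and 102 RPM at 10 µM, 109 RPM at 20 µM and 163 RPM at 30 µM, with no overlap. It rose by 0.44 with the block (SE 0.0783, limma adjusted p = 3.69e-06). Cadps2, which primes dense-core vesicles for release, rose by 0.45 (limma adjusted p = 1.97e-05), from 50.1 and 55.4 RPM to 67.3 and 77.9 RPM. Fam155a, a subunit of the sodium leak channel complex, rose by 0.51 (limma adjusted p = 0.0418) and Gabrg3, a GABA-A receptor subunit, by 0.48 (limma adjusted p = 0.0468). These 2 lay near the threshold. Fam155a was 0.861-fold of DMSO replicate 3 at 20 µM and 1.15-fold at 30 µM, and Gabrg3 0.751-fold and 0.909-fold.

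By function, the calls of limma with the block went both ways and are to be read against 4.13% of all genes called higher and 3.38% called lower. Of the 166 long genes, from which each list was drawn, 14 were called higher and 20 lower (20.5%). Of 17 long channel and receptor genes, 4 rose (Grid1, Gabrg3, Cacna1c and Nkain2) and 4 fell (Grm7, Kcnd2, Ryr2 and Dpp6), with a median change of 0.14. Gabrg3 and Nkain2 were those of opposite sign without the block, and edgeR did not call Dpp6. Cacna1c is a pore subunit of L-type calcium channels, Ryr2 the calcium release channel of the endoplasmic reticulum, Nkain2 a protein that interacts with the sodium pump, and Dpp6 an auxiliary subunit of Kcnd2 channels. Of 40 adhesion and synapse genes, 3 rose (Ptprd, Ptprm and Sdk1) and 3 fell (Dscam, Magi2 and Erc2, the last not called by edgeR), with a median of -0.04. Ptprm is a receptor phosphatase that binds itself on neighbouring cells, Dscam an adhesion molecule of the immunoglobulin superfamily, and Magi2 and Erc2 scaffolds on either side of the synapse. Tenm4, Ptprg, Magi1 and Ptprk, which had the most reads of that list, were not called. Of 16 signalling enzymes and receptors, Cdk14 and the glypican Gpc6 rose and Pde4d, Erbb4 and the kinase Mast4 fell, with a median of -0.11, and edgeR called neither Gpc6 nor Mast4. Of 5 RNA-binding proteins only Adarb2 was called, of 6 axon guidance genes only Unc5d, a netrin receptor, which rose and which edgeR did not call, and of 7 transcription factors none. Of 30 long genes at reported fragile sites, Macrod2 and Sdk1 rose, Wwox, Magi2 and Pde4d fell and 25 were not called, with a median of 0.04, and edgeR called neither Macrod2 nor Wwox. The median over other autosomal genes was 0.03. The lists together held 104 of the 166 genes, 17 of them in more than 1 list.

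The higher doses had 1 library each and were set beside DMSO replicate 3, the control on the same side of principal component 1. The labels do not pair them, so these are values with no test. They share DMSO replicate 3 with each other but share no library with the block. Of the 20 long genes called lower at 10 µM, 19 were lower at 20 µM, 16 at 30 µM and 16 at both. Of the 14 called higher, 10 were higher at 20 µM, 12 at 30 µM and 10 at both. Of the 132 not called, 62.1% were lower at 20 µM and 51.5% higher at 30 µM. The called genes of the rest did likewise: of 415 called lower 94.2% were lower at 20 µM and 76.9% at 30 µM, and of 526 called higher 72.1% and 69.0% were higher. With TMM scaling, 18 of the 20 were lower at 20 µM and 16 at 30 µM, 11 and 12 of the 14 were higher, and 51.5% of the 132 were lower at 20 µM and 46.2% higher at 30 µM. The median at 20 µM was -0.59 in the 20 long genes, 0.37 in the 14 and -0.13 in the 132, and at 30 µM -0.30, 0.56 and 0.02. Across genes, the change at 10 µM and the difference at 20 µM had a Pearson r of 0.542 over the 166 and 0.391 over other autosomal genes, and at 30 µM 0.567 and 0.350. These are descriptions across genes, which are not independent and share the libraries' depth.

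**Figure D3:**
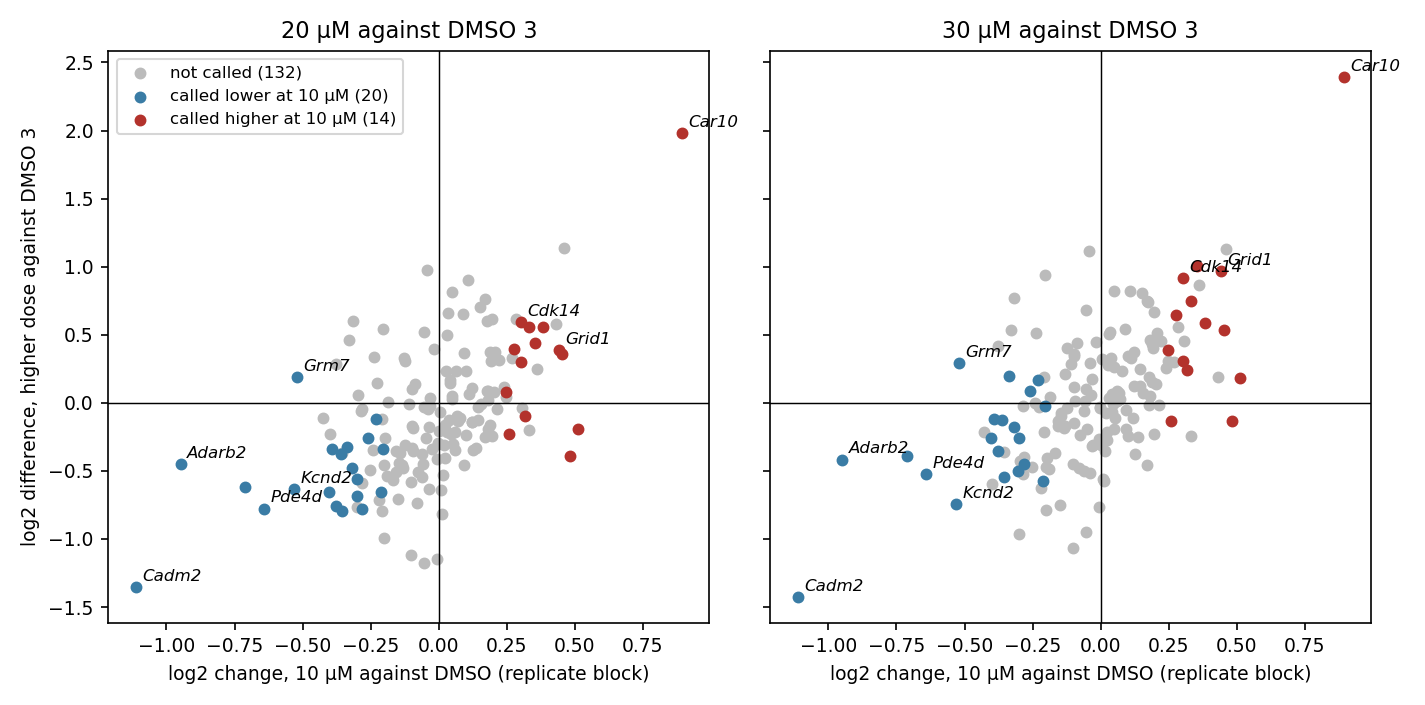
Each point is 1 of 166 long genes. The x axis is the log2 change at 10 µM with the replicate block, and the y axis the log2 difference of the 20 µM (left) or 30 µM (right) library from DMSO 3. Cadm2 lies lowest and Car10 highest in both panels, and 19 of 20 genes called lower (blue) lie below 0 at 20 µM and 12 of 14 called higher (red) above 0 at 30 µM.

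At least 2-fold differences from DMSO replicate 3 were few. At 20 µM, 2 long genes were at least 2-fold higher and 4 at least 2-fold lower, against 1.32% and 0.912% of all genes, and at 30 µM 4 and 2, against 0.581% and 0.529%. Car10 was 4.47-fold higher at 20 µM and 6.01-fold at 30 µM, and Cadm2 was 0.383-fold and 0.364-fold. Sdk1, a synaptic adhesion protein, was 1.36-fold higher at 20 µM and 2.01-fold at 30 µM.

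The dose trend asked the same of all 7 libraries, as a slope per 10 µM. limma called no gene of 13599 (background 0%), while 1174 had an unadjusted p under 0.05, 34 of them long genes. edgeR also called none (1244 at an unadjusted p under 0.05). DESeq2 called 0.949% of all genes (0.397% higher and 0.552% lower) and 7 of the 166, 2 higher and 5 lower. The steepest slopes among genes of at least 5 RPM were those of Car10 (0.98), Agbl1, a carboxypeptidase relative (0.66), Cadm2 (-0.65), Sgcz (0.61), Nkain2 (0.60) and Cdh13 (0.59). Sgcz and Cdh13 were also among the genes highest in DMSO replicate 3, at 16.7 RPM against 3.20 and 3.50 RPM and at 80.6 RPM against 21.8 and 16.9 RPM, and their levels at 20 and 30 µM lay at or above that of DMSO replicate 3. Without DMSO replicate 3 the fit called 18.3% of all genes (6.97% higher and 11.3% lower) and 56 of the 166 (43 higher and 13 lower). In that fit the 20 µM and 30 µM libraries were the only ones on their side of principal component 1.

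With the library set as a covariate, limma called 0.199% of all genes (0.0735% higher and 0.125% lower) and 3 of the 166, 2 higher and 1 lower. Car10 had a slope of 0.84 per 10 µM (SE 0.116, adjusted p = 0.0287), Cadm2 of -0.61 (SE 0.0935, adjusted p = 0.0385) and Cdk14, a cyclin-dependent kinase of the Wnt pathway, of 0.30 (SE 0.0475, adjusted p = 0.0385). Cdk14 was at 68.1, 72.0 and 113 RPM in DMSO, 88.7 and 84.7 RPM at 10 µM, 171 RPM at 20 µM and 215 RPM at 30 µM. In each set the treated libraries were above its DMSO libraries. edgeR with the set called 0.537% of all genes (0.132% higher and 0.404% lower) and 5 of the 166, these 3 with Grid1 and Zbtb20. limma with the set called 1.15% of all genes without the 20 µM library (0.522% higher and 0.625% lower) and 13 of the 166 (7 higher and 6 lower), and 3.13% without the 30 µM library (1.25% higher and 1.88% lower) and 21 of the 166 (5 higher and 16 lower). With the set and TMM factors it called 0.5% of all genes and 5 of the 166. Kcnd2 (-0.31, limma adjusted p = 0.0815) and Grid1 (0.33, limma adjusted p = 0.0555) did not pass in limma. The median slope was 0.06 in the 166 and -0.04 in the others without the set. With it the difference of these medians went from 0.10 to -0.02. The set was taken from the same libraries, so its p-values do not count the choice of the set.

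**Figure D4:**
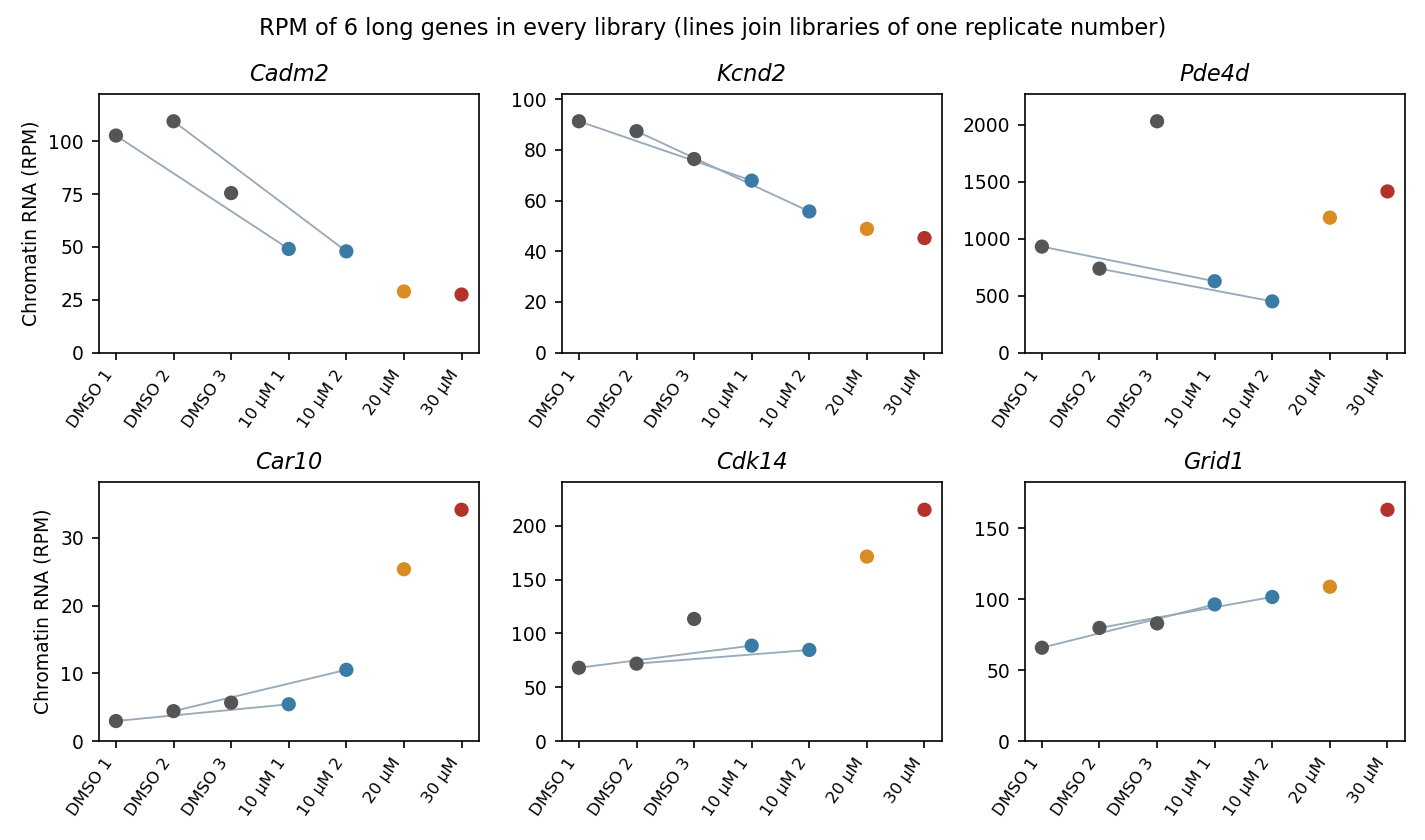
RPM of 6 long genes in each of the 7 libraries (linear axes from 0, 1 point a library), with lines joining the DMSO and 10 µM libraries of one replicate number. Cadm2 and Kcnd2 fall below every DMSO library in all 4 treated ones, Grid1 lies above, and Pde4d and Cdk14 are higher in DMSO 3 than in DMSO 1 and 2.

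Few long genes separated all treated from all DMSO libraries. The 4 treated libraries were above the 3 DMSO libraries for 3 of the 166 (Grid1, Ptprd and Cntnap2), against 1.94% of all genes, and below for 7 (Cadm2, Kcnd2, Adarb2, Dock2, L3mbtl4, Ctnna2 and Dlg2), against 1.87%. A share of 1.81% higher was near the background and one of 4.22% lower was above it. With the 10 µM libraries alone, 13 of the 166 lay above all DMSO libraries, against 16.6% of all genes, and 31 below, against 8.74%. Both rules include DMSO replicate 3. Its median log2 difference from DMSO replicates 1 and 2 was 0.30 in the 166 and -0.50 under 10 kb. How far the shares go with that library was not tested. Ptprd was at 56.6, 61.1 and 50.3 RPM in DMSO and 77.3, 68.3, 62.3 and 62.5 RPM in the treated libraries, a difference that the block called (0.30, limma adjusted p = 0.00979) and the set-adjusted slope did not (0.14, adjusted p = 0.410).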

How the data were processed

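A total of 7 ChrRNA-seq libraries were used. Per the study's methods, rRNA reads were taken out with bowtie2 before STAR alignment to an N-masked mm10 genome, only unique alignments were retained, and featureCounts assigned read pairs to gene bodies by strand. The authors deposited these as RPM, normalized with edgeR. The deposited allelic ratios cover X-linked genes and were not used here.

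Whole read pairs were recovered from the RPM steps (100% of values within 0.0001 RPM). The 13599 genes averaging 1 RPM or more were tested with limma 3.58.1 (lmFit, then eBayes with a trend) on log2(RPM + 1). The pseudocount of 1 makes the changes of low genes look smaller. Adjusted p-values are Benjamini-Hochberg over all genes tested, with a threshold of 0.05. The p-values measure the spread between these libraries. Those of limma with the replicate block rest instead on the trend of that spread over all genes. With the block edgeR also has 1 residual degree of freedom, and its p-values too borrow from the spread of other genes. Alternatives were edgeR 4.0.16 (quasi-likelihood), DESeq2 1.42.0 (R 4.3.3), a pseudocount of 0.1, other filters, TMM factors, other spans, each replicate left out, the replicate block and the library set (sign of principal component 1, noticed in the data). The fits were tested on simulated counts.

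Replicate numbers 1 and 2 pair the DMSO and 10 µM libraries (from the labels and the study's methods, with correlated deviations, r = 0.621). Members and gene lists were chosen with earlier results of these data known. Named genes were those with the most reads, the longest, the largest changes in each fit (called ones where any passed) and between DMSO libraries, and up to 4 of a list. Genes in GENCODE M21 were matched by symbol. Dock2, L3mbtl4, Ctnna2, Dlg2, Zbtb20, Etl4, Elmo1 and the called genes of lists were named after their values were seen. A few items are not reported here.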

Additional observations from a re-analysis of the deposited data

How the results depend on the processing

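Both counts of called long genes were 0 in most settings. At 10 µM, 1 was called by DESeq2, 34 with the replicate block, 26 with the replicate block in edgeR and 26 with the replicate block and TMM factors (7.5%, 6.15% and 6.38% of all genes), and 0 to 1 with each replicate left out (1 without DMSO replicate 3, which is Cadm2). In the dose trend, 7 were called by DESeq2, 3 with the library set, 5 with the set in edgeR, 5 with the set and TMM factors, 13 with the set without 20 µM and 21 with the set without 30 µM (0.199%, 0.537%, 0.5%, 1.15% and 3.13% of all genes from the set onward), and 0 to 56 with each replicate left out (56 without DMSO replicate 3). The block and set fits in edgeR and with TMM factors, and those without the 20 µM or 30 µM library, were added after seeing the data. The cause of these moves was not tested.

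The difference of medians at 10 µM stayed below 0, from -0.36 to -0.03 with each replicate left out, and was -0.03 with the block. That of the slopes was 0.09 to 0.18 with each replicate left out and turned to -0.0189 with the library set, -0.0205 with the set in edgeR, -0.0189 with the set and TMM factors, -0.0148 with the set without 20 µM and -0.0190 with the set without 30 µM. The share of RPM in DMSO was 8.96% for spans of at least 300000 bases and 0.852% for at least 800000, since these hold more or fewer genes, and 3.48% to 3.83% with each replicate left out. The 6 members with the largest change at 10 µM and the 6 with the steepest slopes in the fits without block or set kept their direction in every setting run. Of the 10 with the largest change in the block fit, Gabrg3 turned without the replicate block (-0.0506, and -0.41 in edgeR) and Fam155a turned without it in edgeR (-0.22). With 1 library at 20 µM and at 30 µM, and 9300549 read pairs at 20 µM, genes of a few RPM were measured least well.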
